A study of Rattus norvegicus with 12 samples.

Results

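This set holds 10 rat genes known from the fusion of macrophages into multinucleated giant cells and from osteoclasts, the bone-resorbing cells of the same lineage. They were taken by symbol from a table of 30562 genes and all 10 were found: Dcstamp, Ocstamp, Spp1, Gpnmb, Trem2, Tyrobp, Acp5, Ctsk, Atp6v0d2 and Cd68. The set was picked because Dcstamp, Ocstamp, Spp1 and Gpnmb were higher in stumps with verteporfin than in stumps with the same conduit alone, so that difference is described and not tested. RNA was measured in 12 stumps of rat sciatic nerve, 3 in each of 4 groups. Control stumps carried no conduit named in the labels. CC4:4 and CC4:2 stumps were fitted with truncated cone shaped conduits of different gradients. VP4:2 stumps had the CC4:2 conduit loaded with verteporfin, a porphyrin drug that blocks the binding of the transcriptional co-activator YAP to TEAD factors, and the stated purpose of that group was to test the part of YAP. Treatment of the control stumps, strain, age and sex of the rats, time after surgery and dose of verteporfin are not in the labels, and neither is whether each stump is from its own rat. P-values therefore reflect variation among stumps that could partly be technical. No group with verteporfin and no conduit, or with verteporfin and CC4:4, was analysed here, so the drug is compared within 1 conduit shape.

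Macrophages can fuse with each other when they meet a target too large to engulf, and the same machinery builds osteoclasts from myeloid precursors. The ligand RANKL and its receptor RANK, together with M-CSF and receptors that signal through the adaptor Tyrobp (DAP12), switch on the transcription factor Nfatc1, which drives the fusion proteins and then the enzymes of acid secretion and matrix digestion. In injured nerve, macrophages clear myelin and cell debris, and giant cells are a known part of the tissue response to implanted material. Most of the 10 genes are also used by single macrophages, so their RNA in whole tissue does not count giant cells.

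Levels are given as CPM, counts set to a common library size and scaled between libraries by the trimmed mean of M-values (TMM), in the order of replicates 1, 2 and 3. Totals ran from 13763067 to 18632280 counts per stump, and 15712 genes passed the filter on low counts. All 10 genes of the set passed, and 8 of them were at or above the filter's 0.589 CPM in all 12 stumps, the exceptions being Dcstamp in 11 and Ocstamp in 10. A gene was called changed at a Benjamini-Hochberg adjusted p under 0.05 in the quasi-likelihood test of edgeR, and changes are log2 fold changes ± standard error (SE) with n = 3 per group. Sequencing used a NovaSeq X Plus for replicates 1 and 2 and a DNBSEQ-T7 for replicate 3 in every group, so platform was balanced over groups. Fits on the NovaSeq stumps alone had n = 2 per group, so platform and fewer stumps cannot be told apart there. Control replicate 1 stood apart from the other control stumps in its tissue markers, with a summed level of 6 fibroblast markers of 72287 CPM against 15513 and 16561 CPM, and of 6 Schwann cell markers of 311 CPM against 3862 and 2228 CPM. Collagen genes made up most of that fibroblast sum, while the fibroblast marker Pdgfra ran only from 179 to 234 CPM over the control stumps. Results that rest on control replicate 1 are given with and without it.

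The 10 genes split into patterns over the 4 groups. The fusion genes Dcstamp and Ocstamp, the proton pump subunit Atp6v0d2 and the secreted matrix protein Spp1 were highest in the VP4:2 stumps, several fold above all other groups. Cd68, Tyrobp and Acp5 were low in the CC4:2 stumps and lay in the VP4:2 stumps within or partly under the range of the control and CC4:4 stumps. Gpnmb, Trem2 and Ctsk lay between these patterns. Between CC4:4 and control stumps no difference in the 10 genes passed the test.

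**Figure D1:**
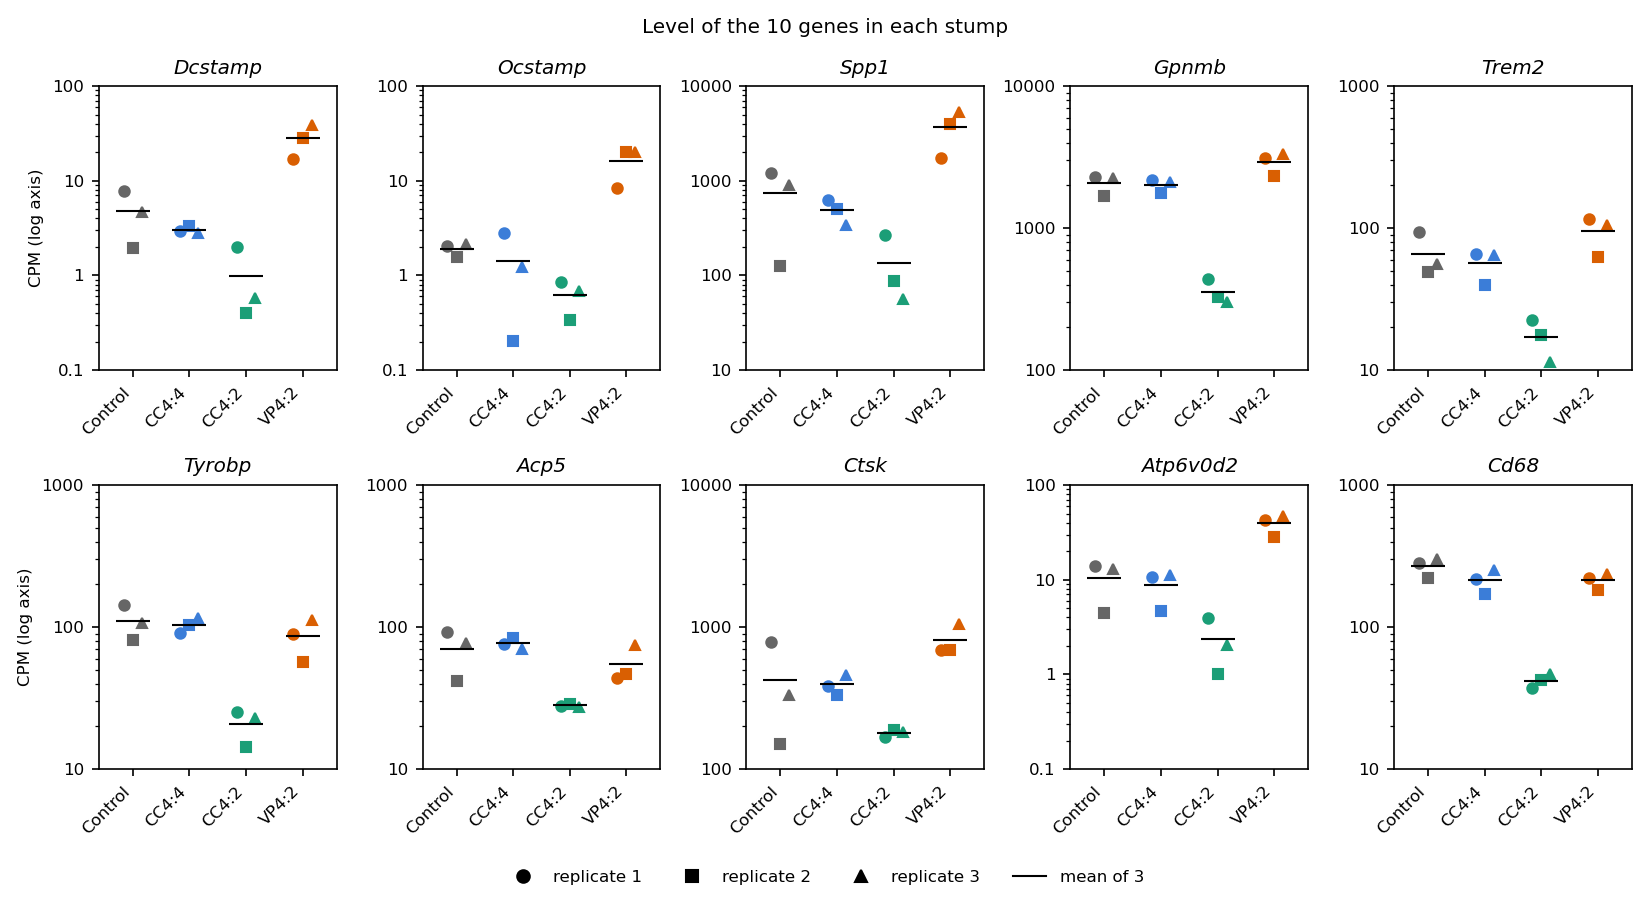
Level of each of the 10 genes in each of the 12 stumps, in TMM-scaled CPM on a log axis, by group, with 1 symbol per replicate and a bar at the mean of 3. In the panels of Dcstamp, Ocstamp, Spp1, Gpnmb and Atp6v0d2 all 3 VP4:2 stumps lie above all 9 others, and in the panel of Cd68 the 3 CC4:2 stumps, at 37.4 to 46.4 CPM, lie below all 9 others. Dcstamp, Ocstamp, Spp1 and Gpnmb chose the set, and the share of all genes placed like this was not computed.

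Dcstamp encodes a protein with several membrane spans that osteoclasts and giant cells need for fusion. Its level was 7.73, 1.94 and 4.72 CPM in control stumps, 2.94, 3.31 and 2.80 CPM in CC4:4 stumps, 2.01, 0.396 and 0.574 CPM in CC4:2 stumps, and 17.0, 28.3 and 39.1 CPM in VP4:2 stumps. The VP4:2 stumps lay above all 9 others, whereas the CC4:2 stumps overlapped the controls through control replicate 2 and lay below the CC4:4 stumps. The lowest level, in CC4:2 replicate 2, rested on 7 counts. The log2 fold change of VP4:2 was 4.80 ± 0.65 against CC4:2, 2.53 ± 0.58 against Control and 3.21 ± 0.60 against CC4:4, given without a test because this gene chose the set. Against Control it ran from 2.19 to 3.06 when each stump was left out in turn, and was 2.24 in the NovaSeq stumps alone. CC4:2 replicate 1 weighed on the lower end: without it the change of CC4:2 against CC4:4 moved from -1.59 to -2.61, and that of VP4:2 against CC4:2 from 4.80 to 5.83.

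Ocstamp encodes a related membrane protein that acts beside Dcstamp in fusion. It was measured at 2.03, 1.55 and 2.16 CPM in control stumps, 2.82, 0.203 and 1.23 CPM in CC4:4 stumps, 0.845, 0.340 and 0.678 CPM in CC4:2 stumps, and 8.30, 19.9 and 19.9 CPM in VP4:2 stumps. Again each VP4:2 stump exceeded every other stump, and CC4:4 replicate 2, with 3 counts, was the lowest of all. The log2 fold change of VP4:2 was 4.66 ± 0.72 against CC4:2, 3.05 ± 0.66 against Control and 3.47 ± 0.68 against CC4:4. Without CC4:4 replicate 2 the change of CC4:4 against Control went from -0.42 to 0.10.

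Atp6v0d2 is a subunit of the vacuolar proton pump that acidifies the resorption space and that osteoclasts also need to fuse well. Its level was 14.0, 4.49 and 12.9 CPM in control stumps, 10.6, 4.66 and 11.3 CPM in CC4:4 stumps, 3.96, 1.02 and 2.03 CPM in CC4:2 stumps, and 42.7, 28.4 and 47.5 CPM in VP4:2 stumps. VP4:2 was above, and CC4:2 below, all stumps of the other groups. It was not among the genes whose rise chose the set, and it rose in VP4:2 against Control by 1.90 ± 0.52 (adjusted p = 0.0291) and against CC4:4 by 2.15 ± 0.52 (adjusted p = 0.0268), while in CC4:2 it fell by 2.16 ± 0.55 against Control (adjusted p = 0.00922) and by 1.91 ± 0.54 against CC4:4 (adjusted p = 0.0178). The 2 higher calls were near the threshold. Atp6v0d2 also followed Dcstamp over the 12 stumps (r = 0.955), so its calls are not independent of the choice of the set. The call against Control was lost in 6 of 21 alternatives, with adjusted p of 0.0634 without Control replicate 2, 0.0636 without Control replicate 3, 0.0531 to 0.0819 without any 1 of the VP4:2 stumps, and 0.208 in the NovaSeq stumps. The call against CC4:4 was lost in 7 of 21, with 0.0514 to 0.109 without any 1 of the CC4:4 stumps, 0.0601 to 0.0817 without any 1 of the VP4:2 stumps, and 0.177 in the NovaSeq stumps. In these alternatives the change itself stayed between 1.57 and 2.35. The fall in CC4:2 was not called in the NovaSeq stumps alone (adjusted p = 0.122 against Control and 0.166 against CC4:4), nor against CC4:4 without CC4:2 replicate 2 or 3 (adjusted p = 0.0573 and 0.0552).

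Spp1 encodes osteopontin, a secreted bone matrix protein that macrophages make in injured and fibrotic tissue and that osteoclasts bind through integrins. The control stumps held 1205, 127 and 898 CPM, the CC4:4 stumps 621, 500 and 337 CPM, the CC4:2 stumps 264, 87.4 and 57.0 CPM, and the VP4:2 stumps 1750, 3975 and 5345 CPM. Spread within groups was wide, with control replicate 2 near the CC4:2 stumps, yet each VP4:2 stump was above every other stump. The log2 fold change of VP4:2 was 4.75 ± 0.88 against CC4:2, 2.30 ± 0.79 against Control and 2.92 ± 0.81 against CC4:4. Without CC4:2 replicate 1 the change of CC4:2 against CC4:4 moved from -1.83 to -2.75.

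Gpnmb is a lysosome-linked membrane glycoprotein, also called osteoactivin, that marks lipid-laden and debris-clearing macrophages. It stood at 2281, 1684 and 2247 CPM in control stumps, 2188, 1764 and 2107 CPM in CC4:4 stumps, 436, 328 and 301 CPM in CC4:2 stumps, and 3136, 2316 and 3332 CPM in VP4:2 stumps. The lowest VP4:2 stump was only just above the highest control stump, and the CC4:2 stumps were far below the rest. Against CC4:2 the log2 fold change of VP4:2 was 3.04 ± 0.24, but against Control it was 0.49 ± 0.22 and against CC4:4 0.53 ± 0.22. Of the 4 genes that chose the set, Gpnmb therefore had the smallest difference between VP4:2 and the groups other than CC4:2.

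The 250 bases before the transcription start are shown for Gpnmb, Spp1 and Ocstamp, and no window was at hand for Dcstamp, the other gene whose rise chose the set. RefSeq windows on GRCr8 were at hand for 7 of the 10 genes, among them Gpnmb, Spp1 and Ocstamp, and are printed 5′ to 3′ on the gene's own strand with motif matches in capitals.
Gpnmb, chr4:79340878-79341127, plus strand: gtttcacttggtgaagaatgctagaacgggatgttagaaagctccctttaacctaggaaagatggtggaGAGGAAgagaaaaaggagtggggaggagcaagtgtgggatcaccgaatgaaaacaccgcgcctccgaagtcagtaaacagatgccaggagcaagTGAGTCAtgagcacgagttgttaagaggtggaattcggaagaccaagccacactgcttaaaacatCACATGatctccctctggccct
Spp1, chr14:5619805-5620054, minus strand: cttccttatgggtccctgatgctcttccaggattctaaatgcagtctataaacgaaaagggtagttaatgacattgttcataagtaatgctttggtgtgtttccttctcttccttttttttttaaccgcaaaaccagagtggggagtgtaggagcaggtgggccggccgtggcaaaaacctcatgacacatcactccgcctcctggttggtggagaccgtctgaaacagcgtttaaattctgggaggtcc
Ocstamp, chr3:174560908-174561157, minus strand: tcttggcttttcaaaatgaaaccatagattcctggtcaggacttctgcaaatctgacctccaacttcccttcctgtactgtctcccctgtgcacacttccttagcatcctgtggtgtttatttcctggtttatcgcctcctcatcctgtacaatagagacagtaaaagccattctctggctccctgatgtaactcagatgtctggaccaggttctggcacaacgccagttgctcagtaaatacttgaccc
The letters searched on both strands were TGANTCA (the AP-1 site that Fos and Jun bind), CACGTG or CATGTG (the E-box of Mitf and TFE factors), GGAATG (the TEAD site) and GAGGAA (the core bound by PU.1, the product of Spi1). They occurred in 6.34%, 17.1%, 12.1% and 23.3% of 33469 RefSeq windows of the same length. The Gpnmb window held TGAGTCA at 87, CACATG at 22 and GAGGAA at 181 bases before the start, and the Spp1 window, which lies inside the annotated span of its gene, and the Ocstamp window held none of the 4 motifs. Among the other windows Cd68 held TGANTCA at 205 and 80 bases before the start, Ctsk, Cd68 and 1 of the 2 windows of Acp5 held the E-box, and GAGGAA was in the windows of Trem2, Ctsk and Cd68. No window of the 7 genes held GGAATG. A match is only a run of letters, and these data do not bear on binding there.

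Trem2 is a lipid-sensing receptor of macrophages and osteoclast precursors that signals through Tyrobp. Trem2 was at 93.2, 48.9 and 56.1 CPM in control stumps, 65.3, 39.8 and 64.2 CPM in CC4:4 stumps, 22.5, 17.7 and 11.4 CPM in CC4:2 stumps, and 116, 62.2 and 106 CPM in VP4:2 stumps. CC4:2 stumps were below all others, and VP4:2 overlapped both Control and CC4:4. Trem2 fell in CC4:2 by 1.95 ± 0.35 against Control (adjusted p = 0.0014) and by 1.71 ± 0.34 against CC4:4 (adjusted p = 0.00325). The value of VP4:2 was 0.51 ± 0.33 against Control (adjusted p = 0.305) and 0.74 ± 0.33 against CC4:4 (adjusted p = 0.171), neither called. In the NovaSeq stumps alone the fall against CC4:4 was not called (-1.41, adjusted p = 0.0573).

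Tyrobp is the adaptor that carries the activation motif for Trem2 and other receptors. It stood at 142, 80.7 and 108 CPM in control stumps, 91.1, 103 and 117 CPM in CC4:4 stumps, 25.4, 14.2 and 22.8 CPM in CC4:2 stumps, and 89.3, 56.8 and 112 CPM in VP4:2 stumps. The 3 CC4:2 stumps were the lowest of the 12, and the VP4:2 range lay inside or below those of Control and CC4:4. Tyrobp fell in CC4:2 by 2.41 ± 0.30 against Control (adjusted p = 0.000229) and by 2.31 ± 0.30 against CC4:4 (adjusted p = 0.000388). VP4:2 differed from Control by -0.37 ± 0.29 (adjusted p = 0.391) and from CC4:4 by -0.28 ± 0.29 (adjusted p = 0.571), and neither passed the test.

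Acp5 encodes tartrate-resistant acid phosphatase, the classic stain of osteoclasts, and is also made by other activated macrophages. Its level was 92.7, 41.9 and 77.3 CPM in control stumps, 76.3, 84.4 and 69.5 CPM in CC4:4 stumps, 27.8, 28.9 and 27.5 CPM in CC4:2 stumps, and 43.4, 46.4 and 75.3 CPM in VP4:2 stumps. CC4:2 was the lowest group with little spread. Of the 10 genes Acp5 had the smallest difference between VP4:2 and CC4:2, 0.97 ± 0.27 on the log2 scale, and VP4:2 was -0.37 ± 0.27 against Control (adjusted p = 0.361) and -0.49 ± 0.27 against CC4:4 (adjusted p = 0.27). It fell in CC4:2 by 1.34 ± 0.28 against Control (adjusted p = 0.00321) and by 1.45 ± 0.28 against CC4:4 (adjusted p = 0.00251).

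Ctsk encodes cathepsin K, the collagen-cutting protease of osteoclasts, which fibroblasts make as well. Ctsk was at 782, 150 and 332 CPM in control stumps, 387, 333 and 463 CPM in CC4:4 stumps, 169, 190 and 183 CPM in CC4:2 stumps, and 687, 693 and 1045 CPM in VP4:2 stumps. Control replicate 1, the stump with the highest summed fibroblast markers of its group, was the only one of the 9 stumps without verteporfin within the VP4:2 range, and control replicate 2 was the lowest of all 12. The part of fibroblasts in the Ctsk level was not tested. The 6 fibroblast markers summed to 20483 to 27159 CPM in VP4:2, 28893 to 68229 CPM in CC4:2 and 50684 to 76422 CPM in CC4:4 stumps. In control stumps they summed to 72287, 16561 and 15513 CPM, so replicates 2 and 3, with lower Ctsk than VP4:2, also had a lower sum. Most of each sum came from the collagen genes Col1a1, Col1a2 and Col3a1. Pdgfra and Dcn of the same list did not follow the sum. Pdgfra averaged 209 CPM in control, 223 in CC4:4, 225 in CC4:2 and 231 in VP4:2 stumps. Dcn averaged 1287, 1376, 2584 and 1981 CPM in the same order. The sum is thus mainly a collagen level. VP4:2 was 0.93 ± 0.45 against Control (adjusted p = 0.171) and 1.03 ± 0.45 against CC4:4 (adjusted p = 0.163), not called. Without control replicate 1 the first became 1.73 and was called (adjusted p = 0.00621), and the second, at 1.03, was called too (adjusted p = 0.0321). Ctsk fell in CC4:2 against Control by 1.22 ± 0.46 (adjusted p = 0.0495), a call that was lost in 17 of 21 alternatives, with -0.43 and adjusted p = 0.286 without control replicate 1. Against CC4:4 it was -1.13 ± 0.45 (adjusted p = 0.0705), not called, although the groups did not overlap. It was called in 4 of 21 alternatives, with DESeq2 (adjusted p = 0.0237), with only the groups compared (0.00333), and without control replicate 1 (0.00942) or 2 (0.0138).

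Cd68 is a lysosomal membrane protein used as a general marker of macrophages and osteoclasts. It was at 280, 221 and 300 CPM in control stumps, 218, 171 and 251 CPM in CC4:4 stumps, 37.4, 42.3 and 46.4 CPM in CC4:2 stumps, and 222, 184 and 238 CPM in VP4:2 stumps. CC4:2 was far below the other groups, which overlapped each other. Cd68 fell in CC4:2 by 2.67 ± 0.19 against Control (adjusted p = 1.79e-05) and by 2.34 ± 0.19 against CC4:4 (adjusted p = 4.2e-05). VP4:2 differed from Control by -0.33 ± 0.18 (adjusted p = 0.226) and from CC4:4 by 0.00 ± 0.18 (adjusted p = 0.99). In whole stumps, fewer cells of a type and less RNA per cell cannot be told apart, for Cd68 and for the other 9 genes.

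Between the conduit CC4:4 and control stumps none of the 10 genes was called in either direction, where 0% of the 15712 genes were called. An unadjusted p under 0.05 was reached by 830 genes (5.28%) and by none of the 10. With DESeq2 the whole table had 10 calls here, none of them from the set. The changes ran from -0.68 for Dcstamp to 0.12 for Acp5, with a median of -0.24 beside -0.01 over all genes. Cd68, at -0.33 ± 0.18, had the largest change relative to its error. Control replicate 1 bore on this comparison: without it 295 genes were called over the whole table, and the values of Gpnmb, Trem2, Tyrobp, Ctsk and Atp6v0d2 turned from below 0 to above 0 with none of them called.

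The members that did not choose the set were lower in CC4:2 stumps. All 6 genes tested against Control, Trem2, Tyrobp, Acp5, Ctsk, Atp6v0d2 and Cd68, were called lower, where 23.2% of all genes were called lower, and their median was -2.05 beside -0.05 over all genes. Against CC4:4, 5 of the 6 were called lower, where 20.7% of all genes were, and their median was -1.81 beside 0.01. CC4:2 stumps lay below all control stumps for 7 of the 10 genes, all but Dcstamp, Spp1 and Ctsk (25.6% of all genes did so), and below all CC4:4 stumps for 9 (28.1%), Ocstamp being the exception. Low CC4:2 levels of Dcstamp, Ocstamp, Spp1 and Gpnmb were part of the choice of the set, so nothing is read from the counts over 10. The 6 tested genes were listed with earlier results of these data known. Their r with those 4 genes ran from 0.222 (Ocstamp with Acp5) to 0.959 (Gpnmb with Trem2). The counts over 6 are therefore not independent of the choice either. Leaving out each stump in turn gave 5 to 6 genes called against Control and 4 to 6 against CC4:4. The comparisons share the CC4:2 stumps, so they are not independent of each other.

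Against Control and CC4:4, the verteporfin-loaded stumps differed most in the fusion genes, Spp1 and Atp6v0d2. Of the 6 genes tested, Atp6v0d2 was called higher against Control (9.3% of all genes were called higher) and again against CC4:4 (5.7%), and none of the 6 was called lower in either comparison (9.57% and 5.51%), so this count does not stand out from all genes. Over the 6 tested genes the median was 0.09 against Control and 0.37 against CC4:4, beside -0.04 and -0.01 over all genes, and with the 4 genes that chose the set it was 0.72 and 0.89. All 3 VP4:2 stumps were above all control stumps for 5 of the 10 genes, namely Dcstamp, Ocstamp, Spp1, Gpnmb and Atp6v0d2, where 20.3% of all genes were. They were above all CC4:4 stumps for those genes and Ctsk, where 21.4% of all genes were. Because the set was chosen on the VP4:2 stumps, nothing is read from these 2 counts or from the medians over 10. Both comparisons share the VP4:2 stumps.

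**Figure D2:**
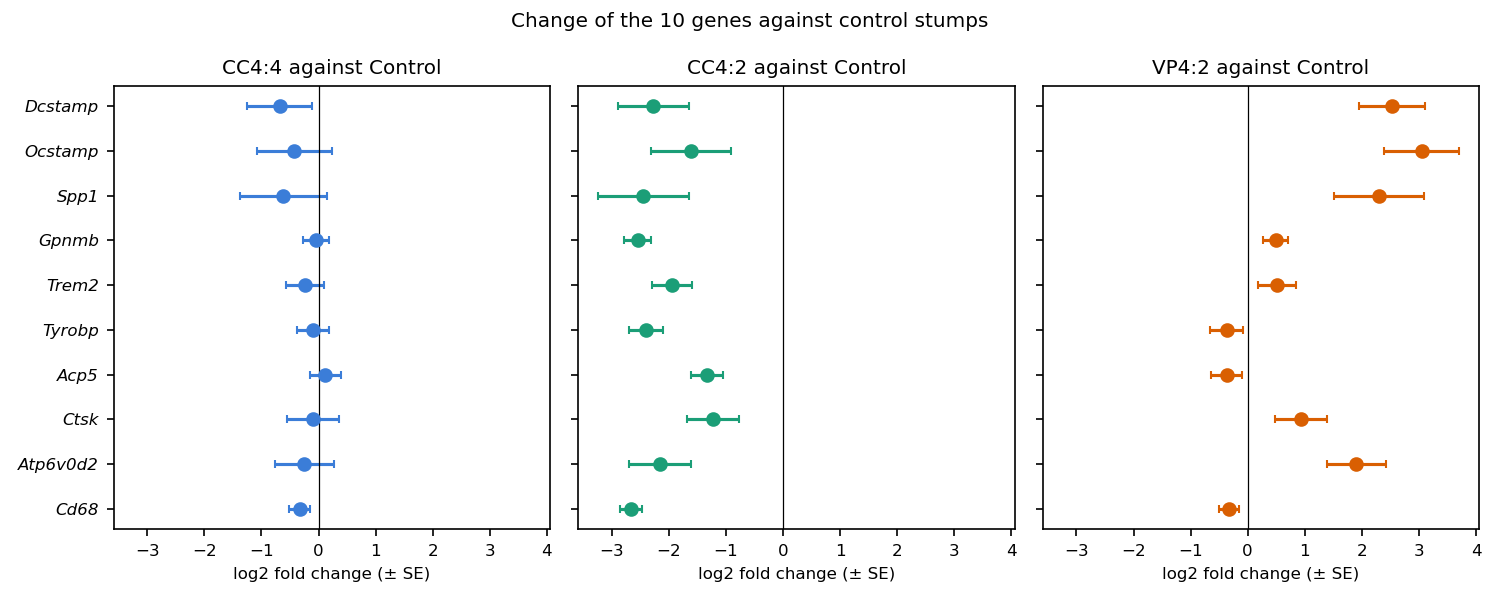
Log2 fold change of each of the 10 genes against control stumps, as points with bars of 1 standard error, for CC4:4, CC4:2 and VP4:2 (n = 3 per group). The points lie near 0 for CC4:4 and between -2.67 and -1.22 for CC4:2, while for VP4:2 they spread from -0.37 for Acp5 to 3.05 for Ocstamp.

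Against CC4:2, the comparison that chose the set, all 3 VP4:2 stumps were above all 3 CC4:2 stumps for each of the 10 genes, which held for 17.9% of all genes and from which nothing is read. The log2 fold changes fell into steps. Dcstamp, Spp1, Ocstamp and Atp6v0d2 lay between 4.06 and 4.80, that is 16.7-fold to 27.9-fold. Gpnmb was at 3.04, and Trem2, Cd68, Ctsk and Tyrobp were between 2.04 and 2.46. Acp5 was lowest at 0.97, and the median of the 10 was 2.75.

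Each gene was also set against Cd68 and against the mean log2 level of the 15 macrophage markers in the same stump. Cd68 differed more between groups than those markers did, whose mean log2 level was 7.79 to 7.96 in control and 6.27 to 6.66 in CC4:2 stumps, so every ratio to Cd68 is raised in CC4:2 relative to the marker scale. Per 100 Cd68 counts, Dcstamp had a median of 1.58 counts in control, 1.35 in CC4:4, 1.24 in CC4:2 and 15.4 in VP4:2 stumps. Atp6v0d2 had 4.30, 4.50, 4.38 and 19.2 in the same order, so on this scale the medians of the first 3 groups lay close together, well under that of VP4:2. The VP4:2 range (from 7.65 for Dcstamp and from 15.5 for Atp6v0d2) was above that of all other stumps (0.877 to 5.37 and 2.04 to 10.6), the highest of these being CC4:2 replicate 1 for both genes. Ocstamp went from medians of 0.721, 0.491 and 1.46 to 8.36, and Spp1 from 299, 285 and 207 to 2165. For Spp1 the lowest VP4:2 stump, replicate 1 at 788, was close to CC4:2 replicate 1 at 707. Gpnmb had medians of 763, 1004, 774 and 1402. Relative to the macrophage markers, in log2 units, Dcstamp averaged -5.76 in control, -5.85 in CC4:4, -6.59 in CC4:2 and -2.87 in VP4:2 stumps, and Atp6v0d2 averaged -4.61, -4.43, -5.35 and -2.34, so there CC4:2 was lowest on average, with overlapping stumps. All 3 VP4:2 stumps were above all 9 others on both scales for Dcstamp, Ocstamp, Spp1 and Atp6v0d2. For Gpnmb that held against Cd68 only, since on the marker scale VP4:2 replicate 2 (3.62) was just under CC4:4 replicate 1 (3.63). Dcstamp, Ocstamp, Spp1 and Gpnmb chose the set on the VP4:2 stumps. The share of all genes placed like this was not computed, so nothing is read from these orders.

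For the other members the order of the groups depended on the scale. Acp5 stood at 59.3 to 74.4 counts per 100 Cd68 counts in the CC4:2 stumps, above all stumps of the other groups, with medians of 25.8 in control, 35.0 in CC4:4 and 25.2 in VP4:2 stumps. Relative to the macrophage markers this was not so: Acp5 in CC4:2 (-1.87 to -1.46) lay within the control range (-2.56 to -1.25) and on average below CC4:4 (-1.64 against -1.24). For Ctsk the CC4:2 stumps (394 to 453) and the VP4:2 stumps (309 to 440) overlapped and both lay above all control and CC4:4 stumps (67.9 to 279), whereas on the marker scale CC4:2 (0.86 to 1.14) overlapped CC4:4 (1.10 to 1.13) and control (up to 1.82), and VP4:2 (1.88 to 2.26) was above all of them. Per 100 Cd68 counts Tyrobp kept medians of 36.6, 46.5, 49.2 and 40.2 with overlapping ranges, and Trem2 had 22.1, 25.6, 41.8 and 44.5. On the marker scale both were lowest in CC4:2 on average, Tyrobp at -2.11 against -1.11 in control and -0.81 in CC4:4, and Trem2 at -2.39 against -1.86 and -1.71. Since both genes of a ratio were measured in the same library, the ratio does not depend on library scaling, but CC4:2 ratios of Dcstamp and Ocstamp rest on 7 to 38 and 6 to 16 counts per stump.

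**Figure D3:**
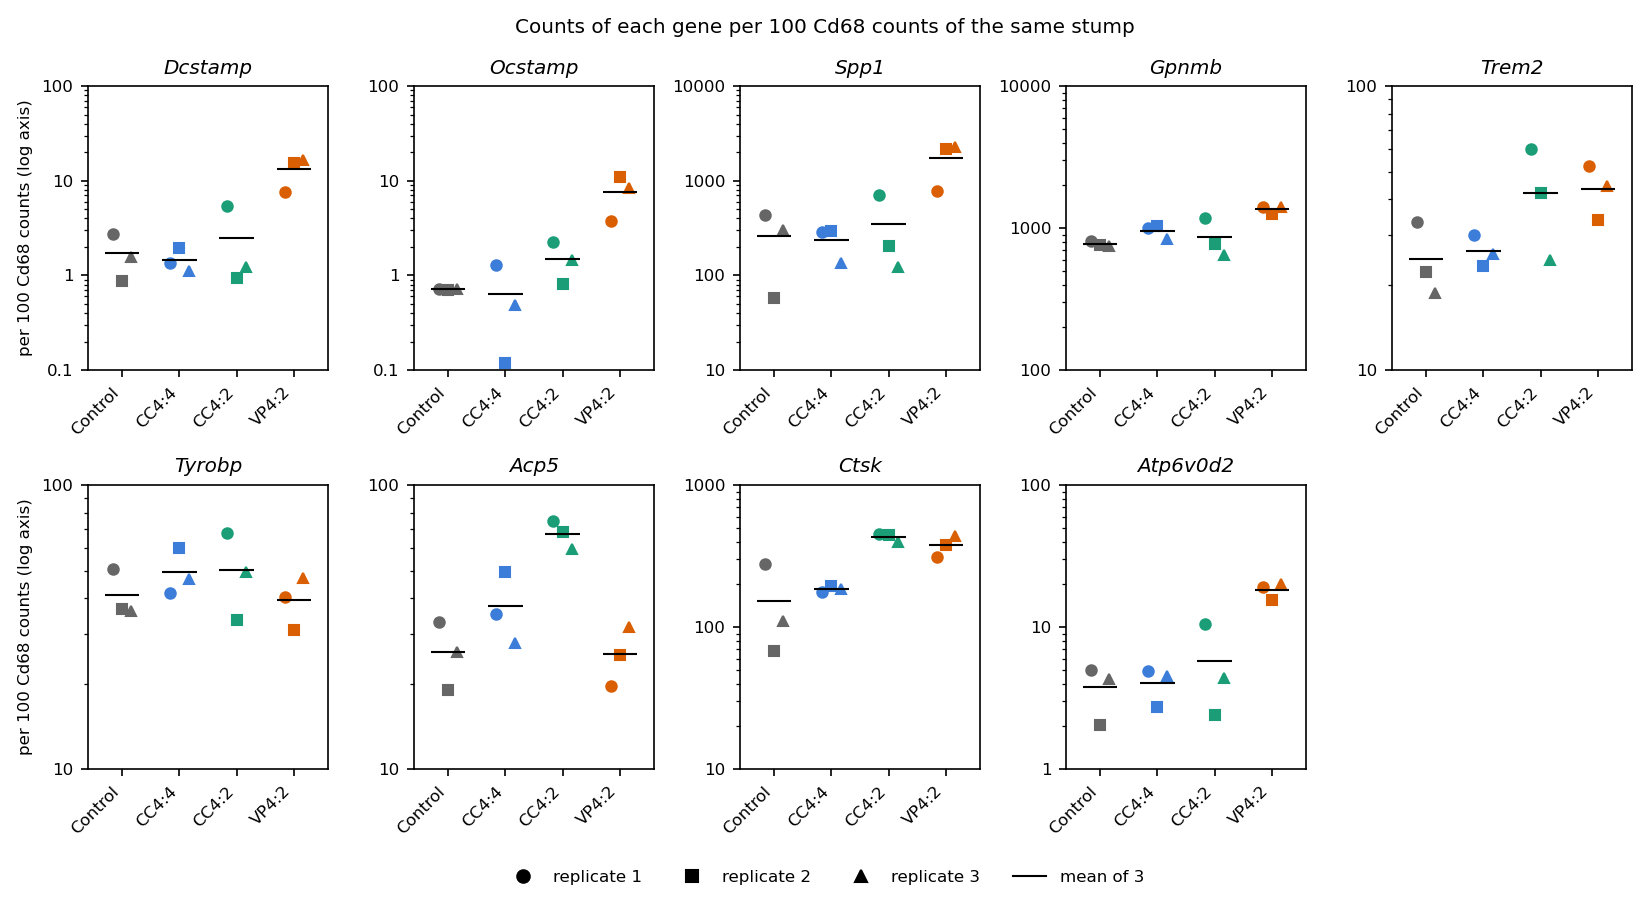
Counts of each gene per 100 Cd68 counts of the same stump, on a log axis, by group, with 1 symbol per replicate and a bar at the mean of 3. Dcstamp, Ocstamp, Spp1, Gpnmb and Atp6v0d2 are highest in all 3 VP4:2 stumps, Acp5 is highest in the 3 CC4:2 stumps (which does not hold relative to the 15 macrophage markers), and the groups overlap for Tyrobp. Dcstamp, Ocstamp, Spp1 and Gpnmb chose the set, and the share of all genes placed like this was not computed.

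Over the 12 stumps, Pearson's r of the log2 level of Dcstamp was 0.972 with Spp1, 0.955 with Atp6v0d2, 0.875 with Ocstamp and with Ctsk and 0.815 with Gpnmb, and 0.652 with Cd68 and 0.50 with Acp5. Cd68 went with Gpnmb and Tyrobp (r = 0.955 and 0.954). Ocstamp had r = 0.647 with Gpnmb. Ocstamp and Acp5 had the lowest r of all pairs, 0.222. These values describe 12 stumps that fall into 4 groups, so they hold differences between groups as well as within them, and all genes of a stump share its library and scaling.

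Among 12855 other genes of at least 1 CPM on average, those closest to Dcstamp over the 12 stumps were Mmp12 (r = 0.985), Ccl9 (0.95), Lipa (0.948), Tm4sf19 (0.943) and Stac2 (0.939). Mmp12 encodes macrophage elastase, and its level was 858, 997 and 1555 CPM in VP4:2 stumps against 59.6 to 392 CPM in control, 82.9 to 158 CPM in CC4:4 and 21.3 to 58.6 CPM in CC4:2 stumps. Tm4sf19 was at 112, 82.1 and 155 CPM in VP4:2 stumps and at 3.17 to 24.8 CPM in the other 9. Lipa encodes lysosomal acid lipase, and its VP4:2 level of 275 to 448 CPM exceeded the highest other stump, at 184 CPM. The genes closest to Cd68 were Myo1f, Ifi30, Myo5a, Laptm5 and Pstpip1 (r from 0.982 to 0.989), and those closest to Ctsk were Vsir, Ppt1, Frrs1, Nkain1 and Gusb (r from 0.926 to 0.967). As these were picked for their likeness, no test is given here. Lipa is also in the list of lipid-associated genes below, where its test is given and is not independent of this likeness.

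The wider pathway was read from 6 lists with 81 genes that had a row in the table, 77 of which could be tested. CC4:4 against Control had none called, higher or lower. In CC4:2 against Control 9 were called higher (20.3% of all genes were) and 43 lower (23.2%), and against CC4:4 10 higher (18.5%) and 42 lower (20.7%). VP4:2 had 12 higher (9.3%) and 11 lower (9.57%) against Control, and 13 higher (5.7%) and 5 lower (5.51%) against CC4:4. Median changes of the 77 genes were -0.74 and -0.81 for CC4:2 and -0.15 and 0.08 for VP4:2, in the same order of comparisons. Against CC4:2, VP4:2 had 34 called higher (5.23% of all genes) and none lower (0.999%), from which nothing is read. These shares of all genes also apply, by comparison, to the counts called in each list and marker set below. With few genes per list, a count near its share is not read as a result.

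Among 15 fusion receptors and adhesion genes, 4 were called higher and 2 lower in VP4:2 against Control. Cd9, a tetraspanin of the fusion site, rose by 1.79 ± 0.25 (adjusted p = 0.00288), and Cdh1, the adhesion protein E-cadherin, by 1.94 ± 0.35 (adjusted p = 0.00666). Both were also high in CC4:2, where Cd9 was at 615 to 1131 CPM beside 732 to 764 CPM in VP4:2 and 180 to 281 CPM in control and CC4:4 stumps. The summed Schwann cell markers moved the same way, at 311 to 3862 CPM in control and CC4:4 stumps and 10572 to 29979 CPM in CC4:2 and VP4:2 stumps, and their part in the Cd9 and Cdh1 levels was not tested. Rac2, a GTPase of blood cells that moves the cytoskeleton, fell by 1.08 ± 0.22 (adjusted p = 0.0101). In the NovaSeq stumps alone, where 19 genes of the whole table were called in VP4:2 against Control, these 3 calls were lost. Lgals3, the lectin galectin-3, was called higher in VP4:2 against CC4:4 by 1.28 ± 0.27 (adjusted p = 0.017), with levels of 872, 480 and 880 CPM against 285 to 341 CPM. That call was lost in 4 of 21 alternatives, those without CC4:4 replicate 2, without VP4:2 replicate 1 or 3, and with NovaSeq stumps alone. In CC4:2, 8 of the 15 were called lower and 4 higher against Control, and Adam8, Itgb2 and Rac2 fell by 2.97, 2.21 and 2.74.

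RANK, M-CSF and adaptor signalling had 18 testable genes, of which VP4:2 had 2 called higher and 2 lower against Control, and 3 higher and none lower against CC4:4. Tnfsf11, which encodes RANKL, was at 9.70, 2.63 and 4.96 CPM in control, 5.29, 4.73 and 5.40 CPM in CC4:4, 0.369, 0.340 and 0.313 CPM in CC4:2 and 1.65, 3.12 and 3.96 CPM in VP4:2 stumps. CC4:2 was lowest, and RANKL fell there by 4.06 ± 0.52 against Control (adjusted p = 0.000241), while VP4:2 was at -0.998 ± 0.43 against Control (adjusted p = 0.13), a difference that was called only without Control replicate 2. Its receptor RANK, from Tnfrsf11a, rose in VP4:2 against Control by 0.82 ± 0.19 (adjusted p = 0.0171), with 13.4, 12.7 and 13.7 CPM against 6.26, 7.20 and 8.97 CPM. This call was lost without VP4:2 replicate 1 or 3 and in the NovaSeq stumps alone. Oscar, a collagen receptor of osteoclasts, fell by 2.11 ± 0.58 (adjusted p = 0.03), a call lost in 6 of 21 alternatives, those without Control replicate 2 or 3, without any 1 of the VP4:2 stumps and with NovaSeq stumps alone. Csf1, the M-CSF gene, and its receptor gene Csf1r were not called in any comparison. Il34, the gene of another ligand of that receptor, was called higher in VP4:2 against Control and against CC4:4. It was at 29.9 to 35.1 CPM in VP4:2, 38.7 to 44.5 CPM in CC4:2, 12.3 to 22.5 CPM in control and 14.3 to 20.5 CPM in CC4:4 stumps. Tnfrsf11b, the gene of a decoy receptor for RANKL, was called higher against CC4:4 (39.3 to 49.6 against 13.5 to 18.0 CPM). Calls of higher genes in this list fell to 0 in at least 1 alternative for both comparisons.

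Siglec15, a receptor that pairs with Tyrobp in osteoclast fusion, was singled out after its values were seen. It was at 11.4, 6.03 and 12.3 CPM in VP4:2 stumps, above all others: 5.02, 2.71 and 4.32 CPM in control, 4.24, 2.23 and 4.92 CPM in CC4:4 and 1.16, 1.25 and 0.522 CPM in CC4:2 stumps. The difference of VP4:2 from Control was 1.29 ± 0.41 and was not called (adjusted p = 0.0512). It was called in 4 of 21 alternatives, with DESeq2 and without Control replicate 1, CC4:4 replicate 2 or CC4:2 replicate 3. Because the gene was singled out by its values, nothing is read from this p-value or these calls.

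Of 13 osteoclast transcription factors and repressors, none was called higher and 3 lower in VP4:2 against Control. Nfatc1, the master factor of osteoclasts, was highest in CC4:2 (71.3, 97.0 and 71.4 CPM), where it rose by 0.92 against Control (adjusted p = 0.002), and VP4:2 was at 0.43 ± 0.17 (adjusted p = 0.102). Mitf, which works with PU.1 on osteoclast genes, was at 44.2 to 58.7 CPM in VP4:2 stumps, above the other 9 (25.9 to 38.7 CPM). It rose against CC4:4 by 0.77 ± 0.19 (adjusted p = 0.0267), a call lost in 6 of 21 alternatives, those without CC4:4 replicate 1 or 2, without any 1 of the VP4:2 stumps and with NovaSeq stumps alone. Against Control Mitf was at 0.53 ± 0.19 (adjusted p = 0.0689). Prdm1, a repressor that favours osteoclasts, and Irf8, which holds them back, both fell against Control, by 2.03 ± 0.33 (adjusted p = 0.00511) and 1.15 ± 0.28 (adjusted p = 0.0188). The Prdm1 call was lost in the NovaSeq stumps alone, and the Irf8 call there, without Control replicate 3 and without any 1 of the VP4:2 stumps.

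In the list of acid secretion and matrix resorption, 2 of 13 genes were called higher and none lower in VP4:2 against Control. Slc4a2, the chloride-bicarbonate exchanger of osteoclasts, rose by 0.79 ± 0.15 (adjusted p = 0.00784), and Ckb, the brain creatine kinase that supplies energy to the pump, by 1.01 ± 0.31 (adjusted p = 0.0429), the latter call lost in 10 of 21 alternatives, among them those without Control replicate 2 or 3, CC4:4 replicate 3, CC4:2 replicate 1 or any 1 of the VP4:2 stumps. Among other subunits of the pump, Atp6v1b2 was at -0.21 ± 0.20 against Control (adjusted p = 0.486) and Tcirg1, named after its values were seen, at -0.31 ± 0.21 (adjusted p = 0.341). In CC4:2 against Control both fell, by 1.93 and 1.51, and 8 of the 13 were called lower.

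The lists for drivers of giant cells and for lipid-associated macrophages were mixed. Il4, a cytokine that makes macrophages fuse, was at 0 counts in all 12 stumps, where a count of 0 allows up to 3 counts per stump, so it was not detectable at this depth. Arg1, an enzyme that IL-4 raises in macrophages, fell in VP4:2 against Control by 2.19 ± 0.56 (adjusted p = 0.0238), a call lost in 5 of 21 alternatives (without Control replicate 1 or VP4:2 replicate 1 or 3, with only the groups compared, and with NovaSeq stumps alone), and in CC4:2 by 5.90 ± 0.68 (adjusted p = 0.000147). Il4r, the receptor, fell in VP4:2 by 1.25 ± 0.27 (adjusted p = 0.0119). Ccr2, the receptor of the chemokine CCL2, was called higher in VP4:2 against Control, at 55.5 to 108 CPM against 32.5 to 47.4 CPM. That call was lost in at least 1 alternative. Of 11 lipid-associated genes 3 were called higher and 2 lower in VP4:2 against Control, among them Lipa (1.12 ± 0.22, adjusted p = 0.00816) and Lpl, lipoprotein lipase, an enzyme of adipocytes too (2.32 ± 0.48, adjusted p = 0.011), while Apoe, the lipid carrier, fell by 1.57 ± 0.22 (adjusted p = 0.00288). The 4 adipocyte markers moved with Lpl, summing to 36.8 to 59.6 CPM in control, 71.7 to 488 CPM in CC4:4, 441 to 1312 CPM in CC4:2 and 333 to 939 CPM in VP4:2 stumps, with all 4 called higher in VP4:2 and in CC4:2 against Control, and their part in the Lpl level was not tested. Itgax, the integrin CD11c, rose against CC4:4 by 1.10 ± 0.21 (adjusted p = 0.0138). The calls on Slc4a2, Il4r, Lipa, Lpl, Apoe and Itgax were lost when NovaSeq stumps alone were used, and that of Itgax also without CC4:4 replicate 2.

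**Figure D4:**
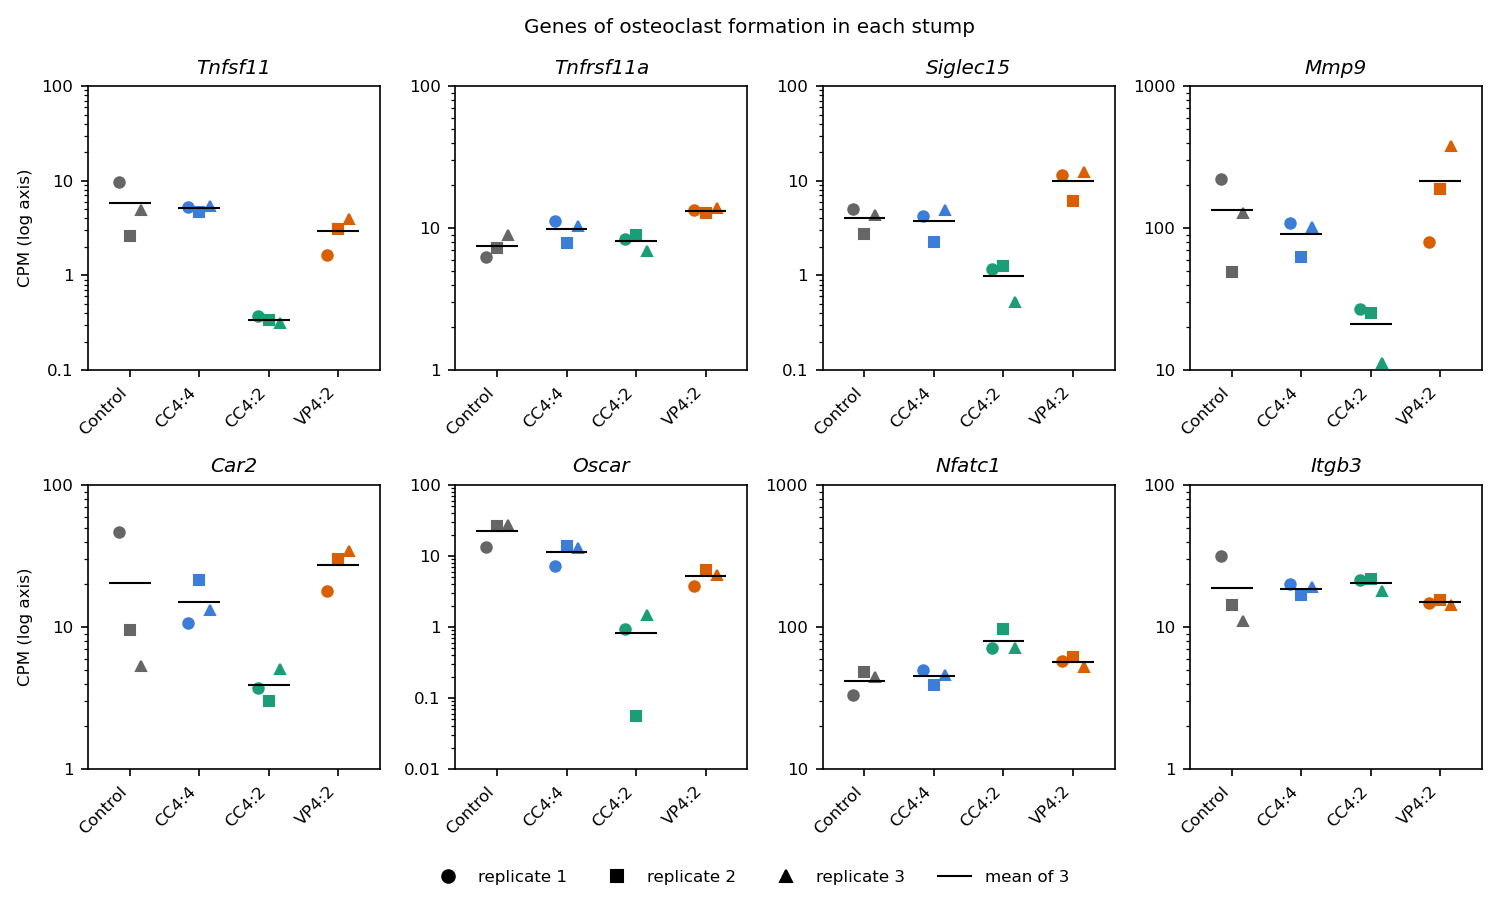
Level of 8 genes of osteoclast formation in each stump, in TMM-scaled CPM on a log axis, with 1 symbol per replicate and a bar at the mean of 3. Tnfrsf11a and Siglec15 are highest in the VP4:2 stumps, Tnfsf11 and Oscar are lowest in the CC4:2 stumps, and Nfatc1 is highest in the CC4:2 stumps.

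The defining markers of osteoclasts were mixed. Of 8 such genes 7 could be tested, and in VP4:2 against Control 1 was called higher (Tnfrsf11a) and 1 lower (Oscar). Siglec15, highest in the VP4:2 stumps, and Nfatc1, highest in the CC4:2 stumps, were among those not called there, as given above. Calcr, the calcitonin receptor, was at 0.22 CPM or less in every stump and at 0 in 4 of them. Itgb3, the integrin chain of osteoclast attachment, was at 14.3 to 15.5 CPM in VP4:2 stumps and overlapped the controls, which reached 31.5 CPM. Mmp9 and Car2, the gelatinase and the carbonic anhydrase of osteoclasts, reached 79.5 to 377 CPM and 18.0 to 34.3 CPM in VP4:2 stumps and overlapped the controls (48.7 to 222 CPM and 5.28 to 46.3 CPM). The values thus describe genes by their known roles, and they do not show that osteoclasts or giant cells were present.

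Cell type markers also differed between groups, in patterns that varied by cell type. The 15 macrophage markers summed to 6720 to 12694 CPM in control, 5801 to 6875 CPM in CC4:4, 2033 to 2625 CPM in CC4:2 and 4916 to 7353 CPM in VP4:2 stumps, lowest in CC4:2 as Cd68 was. Lyz2 was the largest part of the sum, averaging 5669, 3496, 697 and 2994 CPM in the same order. Cd163 went the other way, with its highest mean in CC4:2 (106 CPM, against 93.4 in control, 61.8 in CC4:4 and 91.5 in VP4:2). In CC4:2 against Control 11 of the 15 were called lower, where 23.2% of all genes were. In VP4:2 against Control 1 of the 15 was, where 9.57% of all genes were, so that count does not stand out. The 5 neutrophil markers summed to 262 to 699 CPM in control and CC4:4 stumps and to 8.77 to 15.8 CPM in CC4:2 and VP4:2 stumps, and the 5 T and B cell markers were at 38.1 to 70.6 CPM in VP4:2 against 190 to 520 CPM in control and CC4:4 stumps. The 6 Schwann cell markers and the 4 adipocyte markers were higher in the CC4:2 and VP4:2 stumps than in all control stumps, as given above. The part of these shifts in the levels of the 10 genes was not tested. Levels relative to Cd68 and to the macrophage markers are given above. Dcstamp, Ocstamp and Spp1 were chosen for their rise in the VP4:2 stumps, so nothing is read from their excess there.

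**Figure D5:**
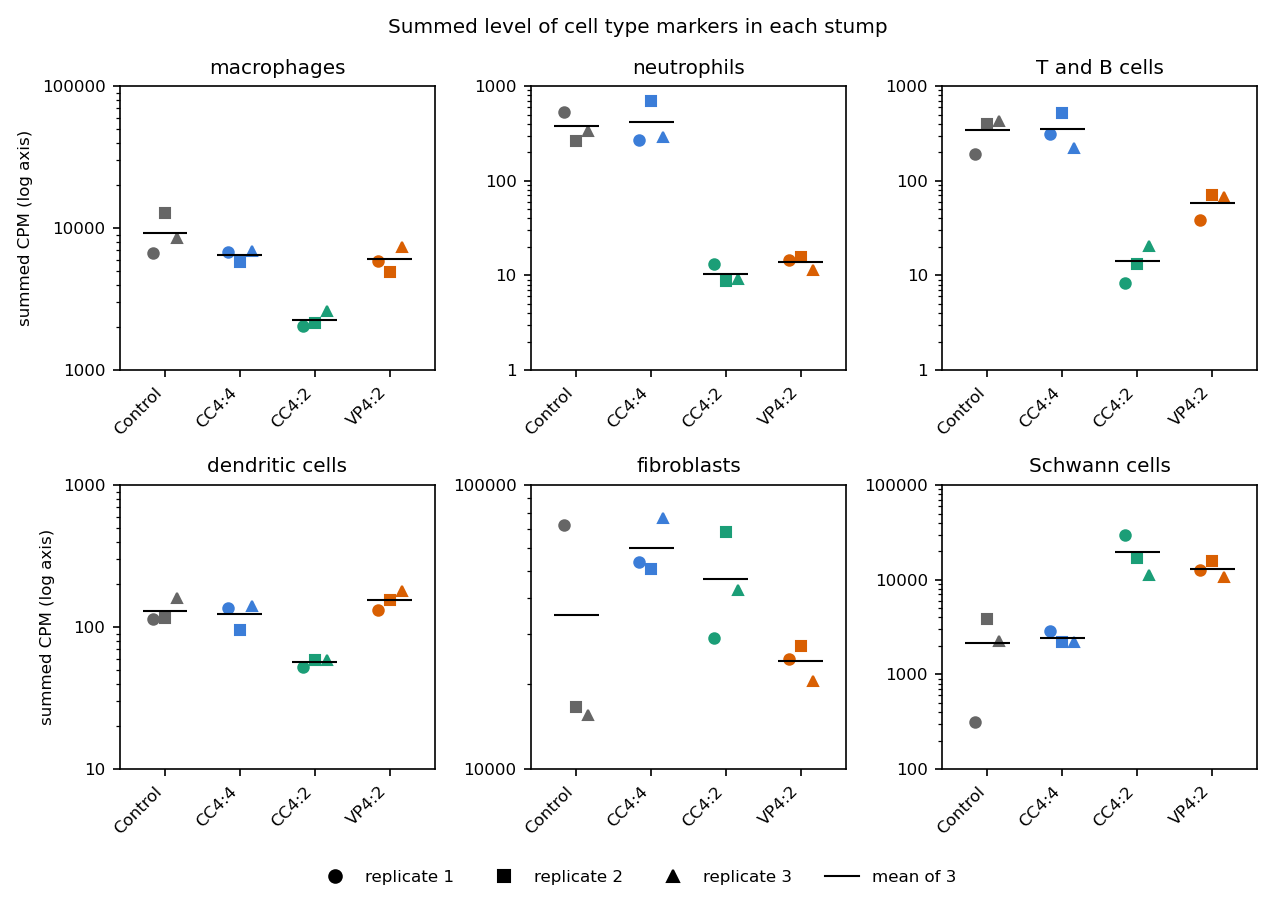
Summed level of 6 sets of cell type markers in each stump, in TMM-scaled CPM on a log axis, with 1 symbol per replicate and a bar at the mean of 3. Macrophage markers are lowest in the CC4:2 stumps, neutrophil markers are at 8.77 to 15.8 CPM in the CC4:2 and VP4:2 stumps, and Schwann cell markers are highest in those same groups.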

How the data were processed

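RNA of 12 stumps was made into mRNA libraries with a stranded kit and sequenced from both ends, per the labels' protocols. The authors deposited expected counts per gene, with no normalization recorded. HISAT2, StringTie, RSEM and DESeq2 are named, per the submitters' processing notes, and their roles, versions, genome build and annotation are not given in the sources used here. All 12 tables held identical values, so 11 were not used. Between 9.44% and 11.12% of a stump's values were not whole, and all were rounded before testing. Of 30562 rows 4367 had no symbol. No pair of replicates was as alike as sampling noise, with a chi-square per degree of freedom of 49.7 to 336.

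Counts were scaled by TMM, filtered with filterByExpr and tested with edgeR 4.0.16 (limma 3.58.1, R 4.3.3) in 1 fit of 12 stumps with 8 residual degrees of freedom. P-values were adjusted over 15712 genes. SE was derived as the absolute log2 fold change over the root of F, and log2 CPM used a prior count of 2. The methods were tested on simulated data. Changes of Dcstamp, Ocstamp, Spp1 and Gpnmb that involve CC4:2 or VP4:2, and all changes of VP4:2 against CC4:2, are described without a test. The genes and lists were chosen with earlier results of these data known. From each list and comparison the text names genes among the 3 called with the smallest p and the 2 uncalled with the highest level, plus Tnfsf11, Tnfrsf11a, Csf1, Csf1r, Nfatc1 and Mitf. The 5 genes most like Dcstamp, Cd68 and Ctsk by Pearson's r are also named. Genes named outside this rule are said to be, or are osteoclast markers. The alternatives were size factors of the RLE kind, DESeq2 1.42.0, limma-voom, other filters, only the groups compared, platform as a covariate, NovaSeq stumps alone, a replicate block and leaving out each stump.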

Additional observations from a re-analysis of the deposited data

How the results depend on the processing

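Over the 10 genes and 6 comparisons, 1194 of the alternative values kept their direction and side of the threshold (or stayed within 1 SD where there is no test), 35 lost a call, 8 gained one, 3 moved and 20 changed sign, none of these called. The count of genes of the set called in VP4:2 against CC4:4 was 2 with only the groups compared, and in the NovaSeq stumps alone it was 3 for CC4:2 against CC4:4, 0 for VP4:2 against Control and 0 for VP4:2 against CC4:4. Leaving out each stump gave 0 to 2 for both comparisons of VP4:2. Sign changes were these. Cd68 in VP4:2 against CC4:4 was -6.93e-05 with RLE size factors, -9.61e-05 with DESeq2 and -0.13 to 0.12 over leave-outs. In CC4:4 against Control Ctsk was 0.22 with limma-voom, 0.030 with the replicate block and -0.47 to 0.70 over leave-outs, and Gpnmb was 0.031 in the NovaSeq stumps and -0.15 to 0.060 over leave-outs. Leave-outs there gave -0.38 to 0.10 for Trem2, -0.25 to 0.13 for Tyrobp, -0.12 to 0.36 for Acp5, -0.58 to 0.075 for Atp6v0d2 and -1.41 to 0.10 for Ocstamp. The cause was not tested. Replicate numbers showed no pairing common to all groups: 7 of 18 same-number correlations of deviations were over 0.1 (-0.402 to 0.433), and 3 of 12 stumps correlated best with their own number. Between CC4:2 and VP4:2, however, the same-number values were 0.119, 0.276 and 0.433, against -0.419 to 0.183 for different numbers. The labels do not say whether stumps were paired, and these correlations cannot settle it. With the replicate block Ctsk in CC4:2 against Control was -1.06 (adjusted p = 0.0928), and no other call on the set changed. Over all genes 6835 were called in CC4:2 against Control, 6156 in CC4:2 against CC4:4, 2964 in VP4:2 against Control, 1762 in VP4:2 against CC4:4 and 979 in VP4:2 against CC4:2. These counts were lowest in the NovaSeq stumps alone, with n = 2 per group, at 3220 for CC4:2 against Control, 3253 for CC4:2 against CC4:4, 19 for VP4:2 against Control, 29 for VP4:2 against CC4:4 and 202 for VP4:2 against CC4:2. With platform as a covariate and all stumps kept, VP4:2 against Control had 1327 genes called higher and 1321 lower. DESeq2 gave 3083 for VP4:2 against CC4:4 and 1861 for VP4:2 against CC4:2. Only the groups compared gave 4363 for CC4:2 against Control, 1869 for VP4:2 against Control and 3321 for VP4:2 against CC4:4. Leave-outs gave 0 to 295 genes for CC4:4 against Control, 1166 to 4294 for VP4:2 against Control, 232 to 2975 for VP4:2 against CC4:4 and 466 to 1496 for VP4:2 against CC4:2. Levels under 1 CPM, as of Dcstamp and Ocstamp in CC4:2 stumps, rest on few counts.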
